A study of Mus musculus with 10 samples.

Results

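The forkhead (Fox) genes encode transcription factors that share the forkhead, or winged-helix, DNA-binding domain and are sorted by letter into subfamilies. The set was every protein-coding gene of GENCODE M1, on the mouse assembly NCBIM37, whose symbol is Fox followed by a letter from a to s and a number, which gave 43 of 22367 protein-coding genes in 19 subfamilies. Among them, 9 are Foxo, Foxp or Foxm1 genes, groups that include factors known in blood and cycling cells, and 34 are not. The 9 are *Foxo1*, *Foxo3*, *Foxo4*, *Foxo6*, *Foxp1*, *Foxp2*, *Foxp3*, *Foxp4* and *Foxm1*. They were taken by name and not by a known role of each in blood. *Foxo4*, *Foxp3* and *Foxr2* are X-linked and 40 are autosomal. The set was defined by name alone and not by any measured value.

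As background, Foxa factors open chromatin in endoderm and liver, Foxc and Foxf factors act in mesoderm, and Foxd3, Foxe1 and Foxl2 act in neural crest, thyroid and ovary. Foxo factors are held outside the nucleus when Akt phosphorylates them and otherwise turn on genes of stress resistance and cell cycle arrest, and Foxo3 protects maturing red cells from oxidative damage. Foxm1 turns on genes of the G2 and M phases, Foxp1 is needed in B cell development and Foxp3 defines regulatory T cells. H3K27me3 is the histone mark that Polycomb repressive complex 2 (PRC2) places on silent developmental genes, and Mtf2, also called Pcl2, is a subunit that helps bring PRC2 to CpG-rich DNA.

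ChIP-seq, which sequences the DNA recovered with an antibody, was performed on fetal liver (FL) cells of E14.5 mouse embryos that were wild-type (WT) or Mtf2-null (Pcl2 -/- in the labels) on a C57Bl/6 background. FL cells were sorted into CD71+Ter119-/lo pro-erythroblasts and the more mature CD71+Ter119high erythroblasts, with 500000 cells per immunoprecipitation. H3K27me3 was profiled in both fractions of both genotypes, and Mtf2 in both fractions of WT embryos. Each had a rabbit IgG control, and WT H3K27me3 and WT Mtf2 shared 1 IgG library per fraction. The null mice came from gene-targeted ES cells aggregated with CD1 blastocysts and lacked Mtf2 in every cell, so liver stroma and other cells around the erythroblasts lacked it too. The labels give 1 library for each of the 10 conditions. The methods state replicates of 2, and pooling is not stated. No spread between replicates could be computed, and no difference between conditions was tested. The opening line of the series design names H3K4me3, while its later lines and the sample labels name H3K27me3.

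The 6 ChIP libraries held 15669899 to 67169672 unique tags and gave 1407 to 28918 peaks. All 1407 peaks of the shortest list, Mtf2-null CD71+Ter119-/lo H3K27me3, had a deposited false discovery rate (FDR) of 100%. The Mtf2-null CD71+Ter119high library was 2.23 times as deep as its WT counterpart. The unique share of tags was 34.6% and 39.7% for Mtf2, below the 78.4% to 85.4% for H3K27me3. Of 12 erythroid marker genes, *Ank1*, a red cell membrane anchor, had a H3K27me3 peak within 5 kb of a start in the WT lists. *Kdr* had one among 4 hepatocyte, 4 macrophage and 4 endothelial markers. Of all protein-coding genes, 11.5% had one in the WT CD71+Ter119high list and 3.28% in the WT CD71+Ter119-/lo list. With so few markers, neither count can be set apart from these shares. Outside the WT H3K27me3 lists *Emr1* had a Mtf2-null CD71+Ter119-/lo H3K27me3 peak and *Afp* a CD71+Ter119-/lo Mtf2 peak. Their FDR was 100% at *Emr1* and 0.2% at *Afp*. A histone mark does not measure expression, so these genes describe the lists and do not measure the purity of the sort. Peak lists likewise give no measure of the *Mtf2* deletion itself.

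The DNA upstream of the members with the strongest and with no H3K27me3 peak is shown first, because PRC2 and Mtf2 are known for CpG-rich targets. Each is the sequence just before the gene's 5′ end on the gene's own strand, on NCBIM37, with every CpG in capitals. *Foxd2* (chr4:114581504-114581753, minus strand) and *Foxc1* (chr13:31898265-31898514, plus strand) held the 2 highest-scoring WT CD71+Ter119high peaks of any member. *Foxm1* (chr6:128312887-128312984, plus strand) and *Foxo3* (chr10:41996562-41996811, minus strand) are Foxo, Foxp or Foxm1 genes with no H3K27me3 peak in any list. The *Foxm1* sequence ends after 98 bases, where the UTR of a divergent neighbouring gene begins.
Foxd2 upstream, marked: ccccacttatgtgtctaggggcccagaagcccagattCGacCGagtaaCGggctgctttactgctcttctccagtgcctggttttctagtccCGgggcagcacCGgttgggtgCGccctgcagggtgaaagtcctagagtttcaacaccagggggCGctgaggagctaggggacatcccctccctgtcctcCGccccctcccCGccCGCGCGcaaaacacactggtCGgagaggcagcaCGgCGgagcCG
Foxc1 upstream, marked: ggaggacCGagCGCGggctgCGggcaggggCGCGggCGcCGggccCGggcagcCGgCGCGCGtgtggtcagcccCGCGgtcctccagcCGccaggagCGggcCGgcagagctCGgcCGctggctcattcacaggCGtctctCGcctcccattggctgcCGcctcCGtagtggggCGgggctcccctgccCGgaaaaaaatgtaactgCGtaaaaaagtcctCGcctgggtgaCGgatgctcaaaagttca
Foxm1 upstream, unmarked: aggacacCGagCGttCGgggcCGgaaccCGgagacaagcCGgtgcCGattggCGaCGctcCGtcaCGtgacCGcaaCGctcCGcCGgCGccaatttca
Foxo3 upstream, unmarked: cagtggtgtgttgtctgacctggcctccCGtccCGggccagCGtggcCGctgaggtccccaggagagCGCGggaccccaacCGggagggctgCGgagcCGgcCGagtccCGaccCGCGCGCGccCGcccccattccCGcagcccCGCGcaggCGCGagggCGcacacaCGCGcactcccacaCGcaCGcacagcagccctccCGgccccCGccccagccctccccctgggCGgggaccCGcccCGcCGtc
The 250 bases upstream held 16 CpGs in *Foxd2* and 29 in *Foxc1*, beside 41 in *Foxm1* and 32 in *Foxo3*. Of the 41 in *Foxm1*, 16 lay in the 98 bases shown, and the rest lay beyond them, on the side of the neighbouring gene. CpG number in this window thus did not separate these marked genes from the unmarked ones. Over all members, the window held a median of 21 CpGs (range 3 to 31) in the 23 genes with a WT CD71+Ter119high peak and 13.5 (3 to 41) in the 20 without, beside a median of 8 over all protein-coding genes. The forkhead recognition sequence TGTTTAC, searched on both strands, occurred upstream of 1 of 43 members (*Foxa1*, 2.33%) and of 2.74% of all protein-coding genes.

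In WT CD71+Ter119high erythroblasts, 23 of the 43 Fox genes had a H3K27me3 peak within 5 kb of a transcription start site (TSS), a share of 53.5%. Of all protein-coding genes, 11.5% had one. The 95% Wilson interval of the Fox share was 38.9% to 67.5%. It covers counting error only, and genes are not independent replicates. A gene is called marked below when a H3K27me3 peak of the named list lay, at least in part, no more than 5 kb from a TSS of that gene. Of the same 43 genes, 5 were marked in WT CD71+Ter119-/lo pro-erythroblasts (11.6%, 5.07% to 24.5%), where 3.28% of all genes were. In Mtf2-null cells 1 was marked in the CD71+Ter119high list (2.33%, beside 1.63% of all genes) and 0 in the CD71+Ter119-/lo list, which allows a share of up to 6.98%, beside 1.27% of all genes.

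**Figure D1:**
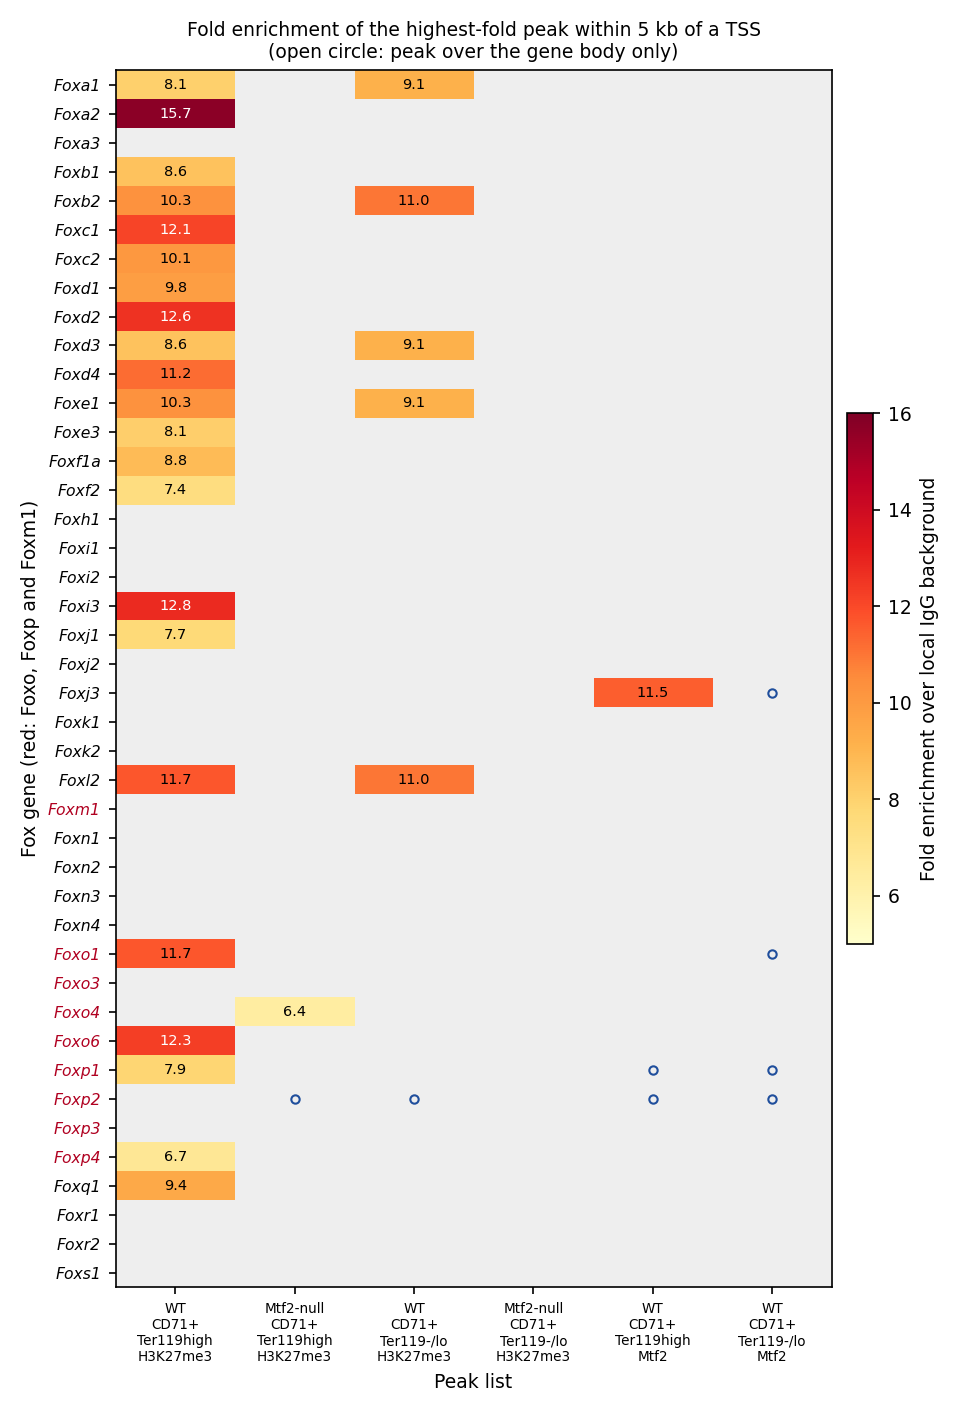
Fold enrichment over the local IgG background of the highest-fold peak within 5 kb of a TSS, for 42 of the 43 Fox genes (rows, in alphabetical order, with Foxo, Foxp and Foxm1 genes in red) in the 6 peak lists (columns). Grey cells have no such peak and open circles mark genes with a peak over the gene body only. The 22 marked genes shown of the WT CD71+Ter119high list stand in the first column, and the other columns hold 1, 5, 0, 1 and 0 such genes.

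By subfamily, the marked genes of WT CD71+Ter119high cells were unevenly spread. Every gene was marked in subfamilies that include Foxb, Foxc, Foxd, Foxe, Foxf, Foxl and Foxq. No gene was marked in 6 subfamilies, Foxh, Foxk, Foxm, Foxn, Foxr and Foxs, which hold 11 genes. These include *Foxh1*, a partner of Smad proteins in Nodal signalling, *Foxn1*, the factor of thymic epithelium, and *Foxm1*. The other 5 subfamilies were mixed. *Foxa1* and *Foxa2* were marked and *Foxa3* was not, *Foxi3* was marked and *Foxi1* and *Foxi2* were not, and *Foxj1*, the factor of motile cilia, was marked while *Foxj2* and *Foxj3* were not. Foxo and Foxp were divided evenly, with *Foxo1*, *Foxo6*, *Foxp1* and *Foxp4* marked and *Foxo3*, *Foxo4*, *Foxp2* and *Foxp3* not.

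Neighbouring members share chromatin, and some share a locus. With a gap of at most 300 kb, the 43 genes formed 39 loci, of which 3 held several members: *Foxq1*, *Foxf2* and *Foxc1* on chromosome 13, *Foxd2* and *Foxe3* on chromosome 4, and *Foxf1a* and *Foxc2* on chromosome 8. All 7 of these genes were marked, and counted by locus, 19 of 39 held a marked member.

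The highest-scoring peaks were at Foxd, Foxc and Foxe genes. The score is −10 log10 of the peak's p-value as deposited. *Foxd2* had a peak of 219 tags (95% Poisson interval 191 to 250) at chr4:114579010-114582419, with a fold enrichment of 12.6 and a score of 551, rank 31 of 4490 in the list. Its summit lay in the coding sequence, 0.31 kb downstream of the TSS, and 3 weaker peaks of 24 to 41 tags flanked it within the window. *Foxc1* followed with 214 tags (186 to 245), a fold enrichment of 12.1 and a score of 545 at chr13:31897420-31900943, its summit in the 5′ UTR. The counting intervals of these 2 peaks overlap.

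*Foxe1* (189 tags, score 434) and *Foxd1* (187 tags, score 455), which acts in the stroma of the kidney, came next. These 4 genes held the 4 Fox peaks among the 100 highest-scoring of the list, and 15 of the Fox peaks in the 5 kb windows stood among the highest 1000. *Foxd3*, *Foxf1a*, *Foxl2*, *Foxo1* and *Foxc2* had 112 to 125 tags in their highest-scoring peak, with overlapping intervals. At the other end, *Foxa2* had 35 tags, *Foxp1* 30, *Foxb1* 25 and *Foxp4* 22, beside the lowest count of 21 in the list. *Foxa2*, a liver and endoderm factor, had the highest fold enrichment of any member, 15.7, on those few tags.

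**Figure D2:**
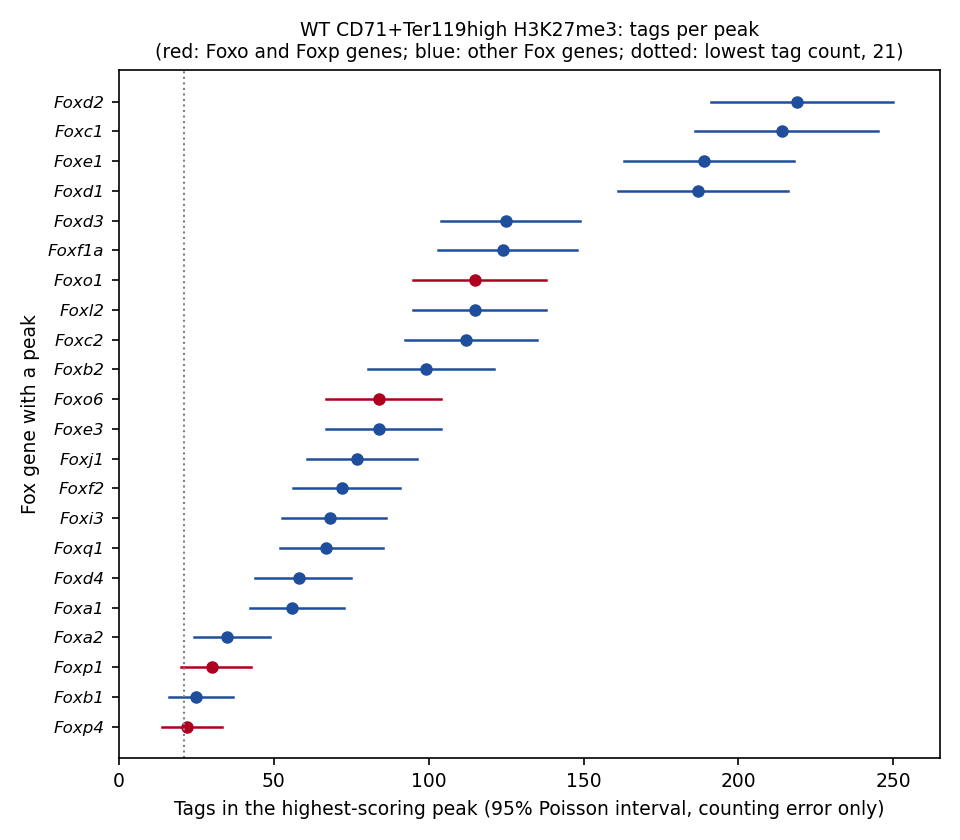
Tags (x axis) in the highest-scoring WT CD71+Ter119high H3K27me3 peak of 22 of the 23 marked Fox genes, with 95% Poisson intervals that cover counting error only. Red genes belong to Foxo and Foxp, blue genes to the other subfamilies, and the dotted line is the lowest tag count in the list, 21. *Foxd2*, *Foxc1*, *Foxe1* and *Foxd1* stand apart at 187 to 219 tags, and *Foxp4* lies at 22.

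The 23 marked genes had 37 peaks within 5 kb, of 21 to 219 tags (median 58) and a fold enrichment of 5.61 to 15.7 (median 8.38). Of these peaks 20 reached a score of 100 (54.1%), beside 40.7% of the 2881 peaks at any protein-coding gene. In CpG content the peaks were like those at all protein-coding genes. The level of a CpG island was reached by 67.6% of them, by 65.8% of the peaks at all protein-coding genes and by 47.6% of the whole list. That level was taken over the 1 kb around the summit. It needs a GC of at least 50% and an observed to expected CpG ratio of at least 0.6.

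The position of the peaks varied. A peak covered the 5′ end of 15 of the 23 genes and some annotated TSS of 18, the exceptions being *Foxb1*, *Foxd4*, *Foxo1*, *Foxp4* and *Foxq1*. The summit of the highest-scoring peak was within 1 kb of a TSS in 16 genes and downstream of it in 20, at a median distance of 0.761 kb. Of all 37 summits, 12 fell in coding sequence, 5 in a 5′ UTR, 2 in a 3′ UTR, 3 in an intron, 7 upstream and 6 downstream of the gene. Of the 2 that remain, 1 lay in a UTR used by some *Foxp1* transcripts and 1 in a non-coding exon. H3K27me3 covered 0.664 to 5.61 kb (median 2.1 kb) of the windows, and 9 genes had several peaks, up to 4 at *Foxd2*. The *Foxq1* peak lay nearer to the TSS of *A530084C06Rik* (0.371 kb), so it could belong to either gene.

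**Figure D3:**
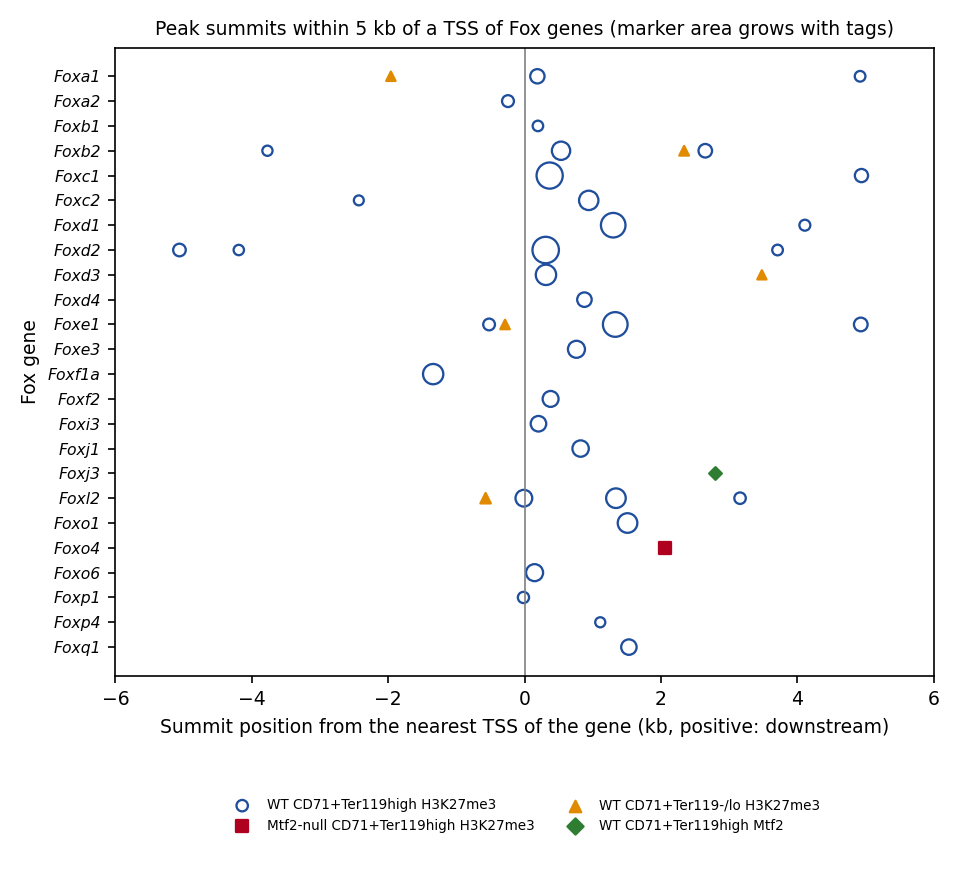
Position of each peak summit (x axis, kb from the nearest TSS of the gene, positive downstream) for 24 Fox genes with a peak in the window in some list. Marker shape and colour give the list and marker area grows with the tag count. Most large circles, the WT CD71+Ter119high H3K27me3 peaks, sit just downstream of the TSS, and the WT CD71+Ter119-/lo peaks (triangles) sit beside them at 5 genes.

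Marked and unmarked Fox genes also differed in build. The 23 marked genes had a median length of 3.23 kb and the 20 unmarked ones 17.6 kb. Of Fox genes under 6 kb, 19 of 23 were marked (82.6%, 62.9% to 93%), beside 7.95% of all genes of that length. Of those of 6 kb or more, 4 of 20 were (20%, 8.07% to 41.6%), beside 13% of all such genes. The 4 short unmarked genes were *Foxh1*, *Foxi1*, *Foxi2* and *Foxs1*, and the 4 long marked ones *Foxo1*, *Foxo6*, *Foxp1* and *Foxp4*. Single-exon structure, common in this family, went the same way. Of 11 single-exon Fox genes 10 were marked, all but *Foxs1*, while 4.82% of all single-exon genes were.

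CpG content at the 5′ end showed a smaller difference. In the 1 kb around it, 19 of the 23 marked Fox genes (82.6%) and 10 of the 20 unmarked ones (50%) reached the CpG island level, beside 69.7% and 40.9% of all marked and unmarked genes. Among Fox genes at that level 65.5% were marked (19 of 29, 47.3% to 80.1%), beside 18.2% of all such genes. Among the others 4 of 14 were (28.6%, 11.7% to 54.6%), beside 6.26%. The 10 unmarked Fox genes at the CpG island level were *Foxj2*, *Foxj3*, *Foxk1*, *Foxm1*, *Foxn2*, *Foxn4*, *Foxo3*, *Foxo4*, *Foxp2* and *Foxr1*. The other 10 unmarked genes, below that level, were *Foxa3*, *Foxh1*, *Foxi1*, *Foxi2*, *Foxk2*, *Foxn1*, *Foxn3*, *Foxp3*, *Foxr2* and *Foxs1*. Length, exon number and CpG content were not separated from one another, and the part of each was not tested.

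**Figure D4:**
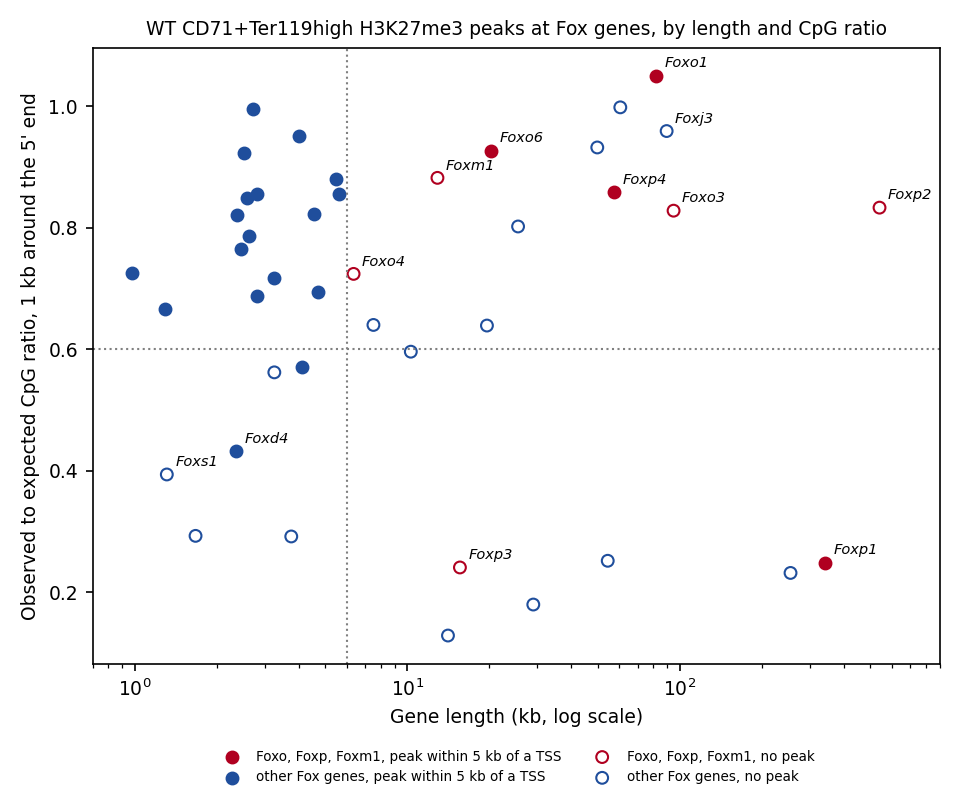
Gene length (x axis, kb, log scale) and observed to expected CpG ratio in the 1 kb around the 5′ end (y axis) of 42 of the 43 Fox genes. Filled points have a WT CD71+Ter119high H3K27me3 peak within 5 kb of a TSS and open points have none, with Foxo, Foxp and Foxm1 genes in red. Dotted lines mark 6 kb and a ratio of 0.6. Filled points gather at the upper left, where short CpG-rich genes lie, and *Foxo1*, *Foxo6*, *Foxp1* and *Foxp4* are the filled points beyond 6 kb.

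The Foxo, Foxp and Foxm1 genes were marked in WT CD71+Ter119high cells at 4 of 9 (44.4%, 18.9% to 73.3%) and the other Fox genes at 19 of 34 (55.9%, 39.5% to 71.1%). The intervals overlap widely, and with 9 genes a difference between the groups could not be resolved. The highest-scoring peaks of the 4 marked genes held 22 to 115 tags (median 57), beside 25 to 219 (median 84) in the other 19, and the ranges overlap. A score of 100 was reached in 2 of these 4 genes and in 16 of the 19. A peak covered the 5′ end in 1 of the 4 and in 14 of the 19.

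*Foxo6* had the highest-scoring peak among them. It lay at chr4:119959197-119960907 over the 5′ end, with 84 tags (67 to 104), a fold enrichment of 12.3 and a score of 253. A second peak of 56 tags lay in the coding sequence 19.2 kb into the gene. *Foxo1* had 115 tags (94.9 to 138) at chr3:52072286-52074446, with a fold enrichment of 11.7 and a score of 189. The peak began just inside the gene, had its summit in an intron 1.51 kb from the TSS, and was followed by a 22-tag peak at 6.37 kb. *Foxp1* had 30 tags (20.2 to 42.8), a fold enrichment of 7.86 and a score of 68.3 at chr6:98977596-98978520. This peak was 238 kb from the 5′ end and 0.016 kb from an internal TSS, so *Foxp1* was marked only through that start. *Foxp4* had 22 tags (13.8 to 33.3), a fold enrichment of 6.74 and a score of 54.9 in an intron at chr17:48059687-48060350.

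*Foxo3*, *Foxm1* and *Foxp3* had no peak near a TSS or over the gene in any of the 6 lists. From their 5′ ends the nearest WT CD71+Ter119high H3K27me3 summit lay 293, 231 and 343 kb away. *Foxo4* and *Foxp2* had none in the WT CD71+Ter119high list and are described with the lists in which they had one.

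The 5 genes marked in WT CD71+Ter119-/lo pro-erythroblasts were *Foxa1*, *Foxb2*, *Foxd3*, *Foxe1* and *Foxl2*, and all 5 were also marked in the CD71+Ter119high list. They were the only Fox genes with a peak in this window in 2 or more lists, and none is a Foxo, Foxp or Foxm1 gene. *Foxl2* had 24 tags (15.4 to 35.7) with a fold enrichment of 11 and a score of 74.7, and 115 tags with a score of 345 in its highest CD71+Ter119high peak. *Foxb2* had 19 tags (11.4 to 29.7), a fold enrichment of 11 and a score of 69.2, beside 99 tags and 204. *Foxa1* had 17 tags (9.9 to 27.2), a fold enrichment of 9.14 and a score of 61.1, beside 56 tags and 83.8.

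*Foxe1* had 18 tags (10.7 to 28.4) and a score of 55.1, beside 189 tags and 434. *Foxd3* had 16 tags (9.15 to 26), the lowest count of the list, and a score of 50.3, beside 125 tags and 295. The 2 libraries differ in depth and in their IgG controls, so the tag counts are given side by side and were not tested. The CD71+Ter119-/lo library held 0.63 times the unique tags of the CD71+Ter119high library. At that ratio the 37 WT CD71+Ter119high peaks would hold 13.2 to 138 tags, and 32 of the 37 would exceed 16, the lowest count in the CD71+Ter119-/lo list, which is not its calling threshold. The part of depth was not tested.

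The weaker peaks of the CD71+Ter119-/lo fraction lay beside the starts. None covered a TSS. Those of *Foxa1*, *Foxe1* and *Foxl2* had their summits 1.96, 0.286 and 0.571 kb upstream, and those of *Foxb2* and *Foxd3* 2.34 and 3.48 kb downstream of the TSS, beyond the end of the gene. The *Foxb2*, *Foxe1* and *Foxl2* peaks overlapped a CD71+Ter119high peak, while those of *Foxa1* and *Foxd3* lay 1.34 and 0.651 kb from one. None of the 5 reached a score of 100, and their FDR was 7.22% to 14.9%. The summit of the highest-scoring one, at *Foxl2* (chr9:98855355-98855554, plus strand), is shown with CpGs in capitals. It was added to the sequences after its values were seen.
Foxl2, WT CD71+Ter119-/lo summit: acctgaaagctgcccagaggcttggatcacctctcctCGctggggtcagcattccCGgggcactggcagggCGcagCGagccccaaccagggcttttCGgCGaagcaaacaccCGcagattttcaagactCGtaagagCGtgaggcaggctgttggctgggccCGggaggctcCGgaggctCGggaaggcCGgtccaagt
These 200 bases held 13 CpGs at an observed to expected ratio of 0.628. Over 1 kb, 2 of the 5 Fox peaks reached the CpG island level. Of the whole CD71+Ter119-/lo list 4.35% did, beside 47.6% of the WT CD71+Ter119high list. How much of the difference in marked Fox genes goes with that was not tested.

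Of the 23 Fox genes marked in WT CD71+Ter119high cells, 23 had no peak within 5 kb in the Mtf2-null list, and this was the rule across the genome. The share was 100% (85.7% to 100%), so that a retained share of up to 13% is allowed, and over all genes marked in WT it was 98.8%. In the CD71+Ter119-/lo fraction the same held for 5 of 5 Fox genes (56.6% to 100%, a retained share of up to 60% allowed), beside 94.7% of all genes marked in WT. The Fox genes thus did not stand out from other marked genes. The absence is that of a called peak and not of the mark. All 1407 peaks of the Mtf2-null CD71+Ter119-/lo list had a deposited FDR of 100%, so the comparison in that fraction rests on the score alone.

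Depth was larger in the null libraries. Scaled by the 2.23-fold difference in unique tags, the 37 WT peaks at Fox genes would hold 46.9 to 489 tags (median 130), and 35 was the lowest tag count in the null list. This is arithmetic on the tags alone. The lowest count of a list is not its calling threshold, the IgG controls differed in depth too (12345800 unique tags for WT and 20646036 for null), and the part of depth in the absence was not tested. In sequence the null list as a whole differed from the WT list. At the summit, 47.6% of the 4490 WT CD71+Ter119high peaks and 0 of the 5791 null peaks had the CpG content of a CpG island. How much of the absence at Fox genes goes with that difference was not tested. For the 23 marked Fox genes the nearest null summit lay at a median of 252 kb from the 5′ end. The median was 324 kb for all genes marked in WT CD71+Ter119high cells and 235 kb for all protein-coding genes. Among the 23, the null summit nearest to *Foxp1* was the farthest, at 2046 kb.

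*Foxo4*, on the X chromosome, was the only Fox gene with a Mtf2-null peak near a TSS. It had 39 tags (27.7 to 53.3), a fold enrichment of 6.37 and a score of 52.3 at chrX:98452049-98452775, rank 4989 of 5791, and no peak in the other 5 lists. The summit lay in an intron, 2.36 kb from the 5′ end. It is shown on the plus strand of NCBIM37 (chrX:98452124-98452323) with CpGs in capitals, chosen after its values were seen.
Foxo4, Mtf2-null CD71+Ter119high summit: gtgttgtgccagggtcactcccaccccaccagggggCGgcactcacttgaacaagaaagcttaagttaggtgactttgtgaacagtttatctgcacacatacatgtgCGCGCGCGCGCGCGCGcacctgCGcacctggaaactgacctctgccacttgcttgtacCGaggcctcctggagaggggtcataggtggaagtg
The 11 CpGs of this window lay mostly in a run of alternating C and G. With a ratio of 0.477 over 1 kb the peak was below the CpG island level.

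Mtf2 peaks near the starts of Fox genes were found in 1 of the 2 fractions. In CD71+Ter119-/lo pro-erythroblasts 0 of 43 genes had such a peak near a TSS (within 5 kb), which allows a share of up to 6.98%, in the longest of the 6 lists, where 8.44% of all genes had one. In CD71+Ter119high erythroblasts 1 of 43 did (2.33%), beside 1.51% of all genes. Of the 23 marked Fox genes of the WT CD71+Ter119high list 0 had a Mtf2 peak near a TSS in that fraction, which allows up to 13%, beside 1.08% of the 2581 genes marked in it. Of the 5 marked in the CD71+Ter119-/lo list 0 had one in that fraction, beside 24.7% of 734 genes, and 5 genes are too few to set apart from that share. The nearest Mtf2 summits of the CD71+Ter119-/lo list outside the window were 5.85 kb from the 5′ end of *Foxk2*, 6.74 kb from *Foxd4* and 8.06 kb from *Foxe1*. Within 50 kb of the 5′ end, 12 of 43 Fox genes (27.9%) and 49.4% of all genes had such a summit.

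The 1 gene with a nearby Mtf2 peak was *Foxj3*, which was unmarked. The peak lay in an intron at chr4:119215680-119216144, with 15 tags (8.4 to 24.7), the lowest count of the list, a fold enrichment of 11.5, a score of 78 and an FDR of 7.52%. It was 2.79 kb from an annotated start of *Foxj3* and also within 5 kb of the TSS of *AA415398*. The highest-scoring Mtf2 peak of the CD71+Ter119-/lo fraction at a member lay in an intron of *Foxp2*, 65.2 kb from its 5′ end, with 81 tags (64.3 to 101), a fold enrichment of 13.4 and a score of 158. Both summits are shown on the plus strand, *Foxj3* at chr4:119215816-119216015 and *Foxp2* at chr6:14916422-14916621, with CpGs in capitals.
Foxj3, Mtf2 CD71+Ter119high summit: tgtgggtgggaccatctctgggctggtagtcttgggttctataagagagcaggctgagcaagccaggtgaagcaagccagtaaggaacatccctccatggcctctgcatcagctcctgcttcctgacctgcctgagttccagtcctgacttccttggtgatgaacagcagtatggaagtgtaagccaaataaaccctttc
Foxp2, Mtf2 CD71+Ter119-/lo summit: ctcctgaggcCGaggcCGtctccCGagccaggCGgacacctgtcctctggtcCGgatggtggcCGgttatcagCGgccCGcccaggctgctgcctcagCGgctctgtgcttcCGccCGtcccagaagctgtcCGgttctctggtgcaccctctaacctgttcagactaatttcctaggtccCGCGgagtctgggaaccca
The *Foxj3* window held 0 CpGs and the *Foxp2* window 14. The 2 Mtf2 summits thus differed widely in the feature shown for the H3K27me3 targets. Over 1 kb both were below the CpG island level, with ratios of 0.0446 at *Foxj3* and 0.524 at *Foxp2*. So were most Mtf2 peaks. That level was reached by 0.433% of the whole CD71+Ter119high Mtf2 list and 2.84% of the CD71+Ter119-/lo one, so it does not set the Fox sites apart.

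Over gene bodies, from the start to the end of the gene, Mtf2 peaks were found at long members. In CD71+Ter119-/lo cells *Foxj3*, *Foxo1*, *Foxp1* and *Foxp2* had one (4 of 43, beside 14.8% of all genes), and in CD71+Ter119high cells *Foxj3*, *Foxp1* and *Foxp2* (3 of 43, beside 4.38%). These genes are 81.8 to 541 kb long. Per 100 kb of gene, Fox genes held 0.323 Mtf2 peaks in CD71+Ter119-/lo cells and all protein-coding genes 0.71. Among genes of 50 kb or more, 4 of 9 Fox genes (44.4%) and 45.1% of all genes had such a peak. In CD71+Ter119high cells the order was the other way, with 0.162 peaks per 100 kb of Fox gene and 0.135 of all genes, and with 3 of 9 long Fox genes (33.3%) and 15.5% of all long genes, counts too low to set the shares apart.

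*Foxp1* had a Mtf2 peak at one place in both fractions, 138 kb from its 5′ end. It held 24 tags (15.4 to 35.7) with a fold enrichment of 13.3 in CD71+Ter119high cells and 34 tags (23.5 to 47.5) with 11.8 in CD71+Ter119-/lo cells, where the peak at chr6:99078317-99079336 enclosed the other. The H3K27me3 peak of the gene was 99.8 kb away. *Foxo1* had 32 Mtf2 tags (21.9 to 45.2) and a fold enrichment of 20.9 in CD71+Ter119-/lo cells, in an intron 7.04 kb from its nearest H3K27me3 peak. *Foxp2*, the longest member, had 3 Mtf2 peaks in CD71+Ter119-/lo cells, of 81, 33 and 36 tags, and 1 of 21 tags (13 to 32.1) in CD71+Ter119high cells.

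H3K27me3 over the bodies of the Fox genes was counted in the same lists. In WT CD71+Ter119high cells 23 of 43 had a body peak, beside 11.5% of all genes. They were the same 23 genes that were marked near a TSS, 19 of them under 6 kb. Both counts thus largely share their peaks and are not separate results. In Mtf2-null CD71+Ter119high cells *Foxo4* and *Foxp2* did (2 of 43, beside 4.22%), with 68 tags (52.8 to 86.2) and a fold enrichment of 6.11 in *Foxp2*, 424 kb from its 5′ end. In WT CD71+Ter119-/lo cells only *Foxp2* did (2.33%, beside 5.01%), with 17 tags, and it was none of the 5 genes marked near a TSS in that list. In the null list of that fraction 0 of 43 had a body peak, which allows up to 6.98%, beside 2.37%. In all, 17 members had no peak near a TSS or over the body in any list (39.5%), beside 66% of all protein-coding genes. They were *Foxa3*, *Foxh1*, *Foxi1*, *Foxi2*, *Foxj2*, *Foxk1*, *Foxk2*, *Foxm1*, *Foxn1*, *Foxn2*, *Foxn3*, *Foxn4*, *Foxo3*, *Foxp3*, *Foxr1*, *Foxr2* and *Foxs1*.

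The Sox, Tbx and Pax families also hold developmental transcription factors. In WT CD71+Ter119high cells 11 of 19 Sox genes (57.9%, 36.3% to 76.9%), 6 of 13 Tbx genes (46.2%, 23.2% to 70.9%) and 5 of 9 Pax genes (55.6%, 26.7% to 81.1%) were marked, and these intervals all overlap that of the Fox genes. In WT CD71+Ter119-/lo cells 5 of 19 Sox genes (26.3%, 11.8% to 48.8%), 4 of 13 Tbx genes (30.8%, 12.7% to 57.6%) and 2 of 9 Pax genes (22.2%, 6.32% to 54.7%) were marked. Each share was above the 11.6% of the Fox genes, with intervals that overlap its own, and the difference was not tested. Mtf2 peaks near a TSS were found in none of the 3 families in either fraction, which allows shares of up to 15.8%, 23.1% and 33.3%. Of all genes, 1.51% had one in CD71+Ter119high cells and 8.44% in CD71+Ter119-/lo cells. The families are too small for their absence of peaks to be set apart from these shares.

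**Figure D5:**
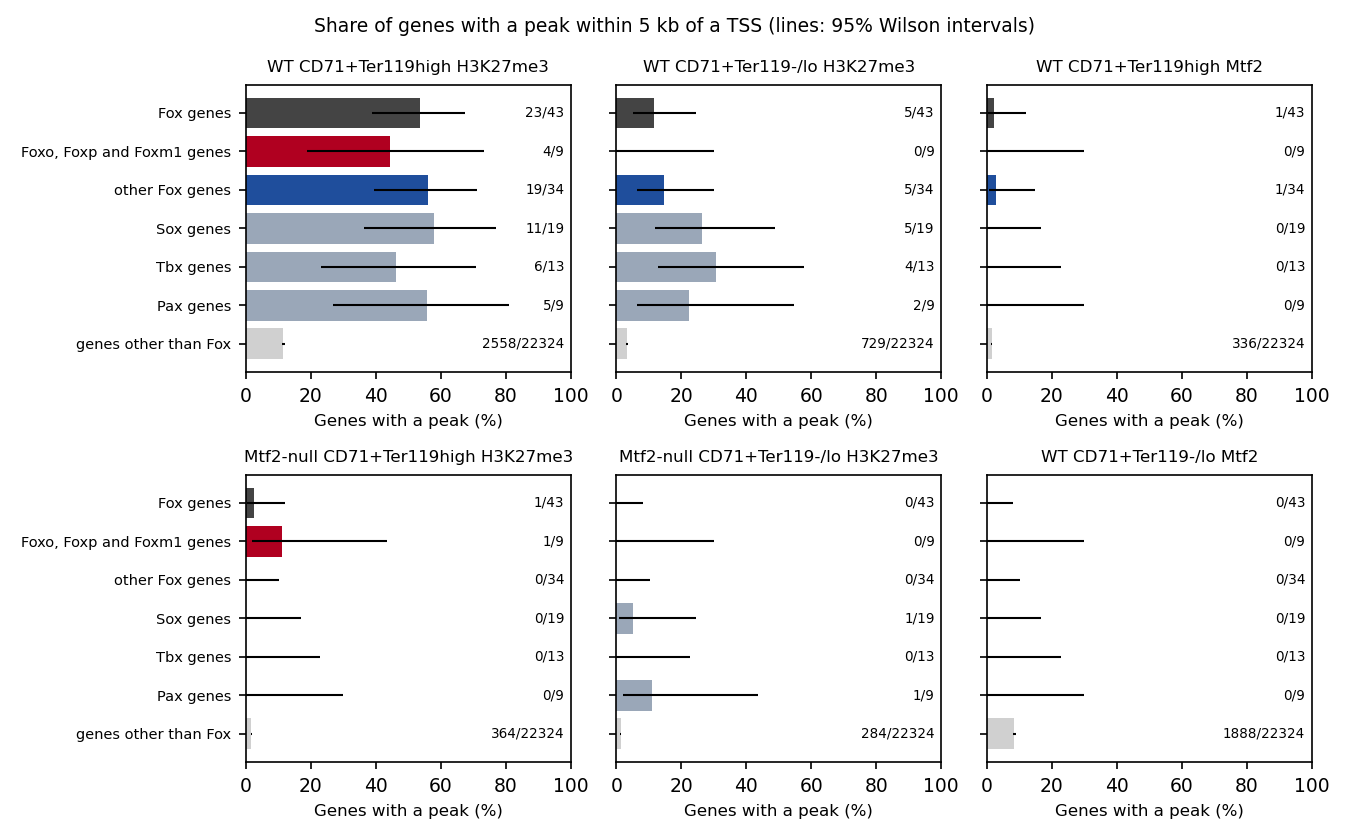
Share of genes (x axis, %) that had a peak up to 5 kb from a TSS in each of the 6 lists, for all Fox genes, their Foxo, Foxp and Foxm1 members, the other Fox genes, the Sox, Tbx and Pax families and all other protein-coding genes. Lines are 95% Wilson intervals and the numbers at the right give genes with a peak over genes in the set. In the WT CD71+Ter119high H3K27me3 panel the 4 families reach 46.2% to 57.9% and other genes 11.5%, and in the Mtf2-null CD71+Ter119high panel they reach at most 2.33%.

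Among genes that act with the Foxo factors, 3 of 11 regulators and 3 of 12 known targets were marked in WT CD71+Ter119high cells. The marked regulators included *Akt1* and *Sirt1*. The peaks of the kinase gene *Akt1* (112 tags) and of the deacetylase gene *Sirt1* (22 tags) lay 4.35 and 3.01 kb upstream of the 5′ ends. *Akt2* had a Mtf2-null CD71+Ter119high peak of 37 tags, 31.9 kb from its 5′ end. The marked targets were *Klf2*, *Bcl6* and *Bcl2l11*. *Klf2*, a factor of lymphocyte and endothelial quiescence, had 121 tags, a fold enrichment of 18.5 and a score of 436 over its 5′ end, and *Bcl6* and the apoptosis gene *Bcl2l11* had 46 and 41 tags. In WT CD71+Ter119-/lo cells *Bcl2l11* (18 tags) and *Cdkn1a* (480 tags) were marked.

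*Cdkn1a*, which encodes the cell cycle inhibitor p21, was the only gene of these lists with Mtf2 peaks, with 268 tags in CD71+Ter119high and 727 in CD71+Ter119-/lo cells. The CD71+Ter119high Mtf2 peak had a score of 263 but a deposited FDR of 100%. The CD71+Ter119-/lo Mtf2 peak had a score of 453 and an FDR of 0.07%. All 3 *Cdkn1a* peaks covered the same stretch, their summits 13.4 kb or more from the 5′ end. The H3K27me3 one held the most tags of any peak in its list. Of 10 known Foxm1 targets 0 had a peak within 5 kb in any list. With 10 to 12 genes, these lists are too short for a share to be read against the 11.5% of all genes marked in WT CD71+Ter119high cells.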

How the data were processed

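For alignment to mm9 the authors used Bowtie2 2.2.3, and peaks came from MACS 1.3.7, which set each ChIP library against IgG from the same fraction and genotype (per the file headers, p cutoff 1e-05, band width 300 bp, model fold 32, tag size 25). Deposited tag counts are reads per peak, not scaled for depth. The deposited score is −10 log10 of the p-value, fold enrichment, as deposited, is the ratio of ChIP to local IgG background, and the deposited FDR is a percent estimated by the authors' peak caller. PCR duplicates and shared loci mean that all intervals, and the limits of 3 counts given for a count of 0, cover counting error only.

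Peaks (6 lists) were joined here to GENCODE M1 on NCBIM37, the assembly of mm9, where no peak lay beyond a chromosome end. A gene had a peak when at least 1 base overlapped the 5 kb around any of its TSS, or its body. Genes of the mitochondrial chromosome were left out. Sequences were read from NCBIM37. Intervals are 95% Wilson for shares and Poisson for tags. With 1 library per condition no test was run. Members are named except 1, which is counted in all totals but, like 1 of the regulators, is not reported here. Full values were given for the member with the highest-scoring peak of each list, for members with peaks in 2 or more lists and for the Foxo, Foxp and Foxm1 genes. Members, lists of regulators, targets, markers and families, and this rule were chosen with earlier results of these data known, and some sequences, as stated, after their values were seen. The overlap steps were tested on simulated intervals. The steps were run with pysam 0.24.0, pandas 2.3.3, numpy 2.4.6, scipy 1.17.1 and matplotlib 3.10.9 in Python 3.11.15. Alternatives were an FDR of at most 5%, a minimum score of 100, a window of 1 kb, the summit in the window, the 5′ end as the only TSS, the whole gene, equal numbers of peaks, autosomes only and other CpG settings.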

Additional observations from a re-analysis of the deposited data

How the results depend on the processing

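The count of 23 Fox genes marked in WT CD71+Ter119high cells stayed between 18 and 23 under every alternative run. As many lacked a Mtf2-null peak each time. All 23 lacked one in the main setting, so only the whole-gene alternative, which adds sequence, could have changed this. The other settings only remove peaks, genes or starts. Of 83 alternative values, 62 stayed within 1.5 times the main count and 21 moved. The 62 include main counts of 0, which settings that only remove peaks could not move. At a score of at least 100, 18 Fox genes were marked (5.54% of all genes), the WT CD71+Ter119-/lo count and the count of those without a null peak fell to 0, the Mtf2-null and Mtf2 CD71+Ter119high counts were 0, and 2 Foxo, Foxp and Foxm1 genes were marked. At an FDR of at most 5%, the WT CD71+Ter119-/lo count, those without a null peak and the Mtf2 CD71+Ter119high count were 0, and 2 Foxo, Foxp and Foxm1 genes were marked. The 3 zeros are fixed by the whole lists, since 1 of 4992 WT CD71+Ter119-/lo peaks and 0 of 5309 Mtf2 CD71+Ter119high peaks (lowest FDR 6.94%) passed. The Mtf2-null CD71+Ter119-/lo count, counted above as unmoved at 0, was fixed as well, since 0 of its 1407 peaks passed. Within 1 kb of a TSS, the 2 CD71+Ter119-/lo counts were 2, and the Mtf2-null and Mtf2 CD71+Ter119high counts 0. Over the whole gene, the Mtf2-null CD71+Ter119high count was 2 and the Mtf2 counts were 3 (CD71+Ter119high) and 4 (CD71+Ter119-/lo). With 1407 highest-scoring H3K27me3 peaks per list, both CD71+Ter119-/lo counts were 2, the Mtf2-null CD71+Ter119high count was 0 and 2 Foxo, Foxp and Foxm1 genes were marked. On autosomes alone the Mtf2-null CD71+Ter119high count was 0. Restricting peaks to those nearest to a Fox TSS was added after seeing the data and left 22 marked genes, without *Foxq1*. The counts of 5 and 1 outside the WT CD71+Ter119high list rest on 1 peak per gene, each with a score under 100, and the WT CD71+Ter119-/lo library was the shallowest for H3K27me3.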

Other observations

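*Foxl1* was not among the 43 genes because the annotation calls it a pseudogene. It lies beside *Foxc2* on chromosome 8 and had 2 WT CD71+Ter119high H3K27me3 peaks, of 23 and 37 tags, the larger with a fold enrichment of 8.98 and covering its annotated start. It was looked up after the values of its neighbours were seen.

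Among the 20 unmarked Fox genes, the nearest WT CD71+Ter119high H3K27me3 summit was 31.4 kb from the 5′ end of *Foxa3*, a liver factor, 41.9 kb from *Foxr1* and 46.2 kb from *Foxj3*, and the median over the 20 was 283 kb. Over all protein-coding genes without a peak in the window in that list the median was 187 kb. *Foxr2*, which lay 2071 kb from such a summit, had a CD71+Ter119high Mtf2 summit 6.72 kb from its 5′ end.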
